A study of Mus musculus with 22 samples.

Results

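The genes described here are 44 genes of glucose metabolism among the 29367 genes counted in the libraries. They were chosen by gene symbol with no cutoff on measured values, although earlier results of these data were known. Glycolysis is represented by 19 of them (Hk1, Hk2, Gpi1, Pfkl, Pfkm, Pfkp, Pfkfb2, Pfkfb3, Aldoa, Aldoc, Tpi1, Gapdh, Pgk1, Pgam1, Eno1, Eno2, Pkm, Ldha and Ldhb). Another 6 govern the entry of pyruvate into mitochondrial metabolism (Pdha1, Pdhb, Dlat, Pdk1, Pdk2 and Pcx). The TCA cycle is represented by 14 (Cs, Idh2, Idh3a, Idh3b, Idh3g, Ogdh, Dlst, Dld, Sucla2, Suclg1, Suclg2, Fh1, Mdh1 and Mdh2) and glycogen metabolism by 5 (Pygb, Pygm, Gys1, Gbe1 and Ugp2). All 44 were detected in every library and passed the filter on low counts in each comparison. Aldoa occupied 2 rows of the table, and the second row, with 2 to 22 counts per library, was left apart.

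Ribosome-bound mRNA was taken from astrocytes of the optic nerve head (ONH), the unmyelinated stretch where axons leave the eye, and of the optic nerve proper (ONP), the myelinated stretch just behind it. All mice, aged 3 to 4 months, carried the Rpl22tm1.1Psam allele of strain B6J.129(Cg)-Rpl22tm1.1Psam/SjJ and, from a B6.Cg strain, the transgene Tg (GFAP-Cre) 73.12Mvs/J. Cre driven by a GFAP promoter adds an HA tag to the ribosomal protein Rpl22 (ribotag), and the labels give the genotype as WT. All had received microbeads in the eye, which raise intraocular pressure (IOP), and were examined at 7 or 30 days. Each library pooled tissue of 4 mice, 2 male and 2 female, with 7 libraries per region at 30 days and 4 per region at 7 days. According to the paper, ONH and ONP tissue came from the same mice. Libraries of the regions can be matched by replicate number at 30 days, but not at 7 days. Mice without microbeads were not analysed here, so every comparison is between treated groups and none measures the response to IOP itself. Tagging depends on GFAP promoter activity, and in pooled tissue fewer astrocytes and less mRNA per astrocyte cannot be told apart.

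Astrocytes are regarded as strongly glycolytic cells that release lactate for axons and hold nearly all of the glycogen of nervous tissue. Glycolysis converts glucose to pyruvate, which is either reduced to lactate by lactate dehydrogenase or enters the TCA cycle through the pyruvate dehydrogenase complex, an enzyme that the pyruvate dehydrogenase kinases switch off. Several steps are catalysed by isozymes encoded by different genes, and these differ in kinetics and in the tissues that use them.

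The libraries held 16292500 to 33307100 counts, and 3 counts corresponded to 0.0897 to 0.191 CPM (counts scaled to library size with edgeR's TMM factors). All 8 astrocyte markers examined (Gfap, Aqp4, Slc1a3, Slc1a2, Gja1, Sox9, Aldh1l1 and S100b) were present in every group, with summed levels of 12527 to 30116 CPM. RNA of other cells was present too. The summed level of 5 oligodendrocyte markers (Mbp, Mog, Mag, Mobp and Cnp) was 9898 to 30531 CPM in the ONH and 16846 to 57512 CPM in the ONP at 30 days, and 14598 to 27465 and 57428 to 69528 CPM at 7 days. Photoreceptor markers (Sag, Gnat1, Pde6b and Rcvrn) summed to 50.6 to 2408 CPM in the ONH and to 1.51 to 62.9 CPM in the ONP. Replicates 5 and 7 of the ONP at 30 days had the lowest astrocyte sums of their group (13800 and 19044 CPM, against 21139 to 30116 CPM in the others) and the highest microglial sums (1553 and 1373 CPM, against 118 to 501 CPM for Aif1, Cx3cr1, P2ry12, Tmem119 and Csf1r). A pair of the ONH libraries at 7 days likewise had 12527 and 13813 CPM of astrocyte markers, against 19206 and 25047 CPM in the others. Counts of genes are therefore given with and without these 4 libraries where they changed.

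**Figure D1:**
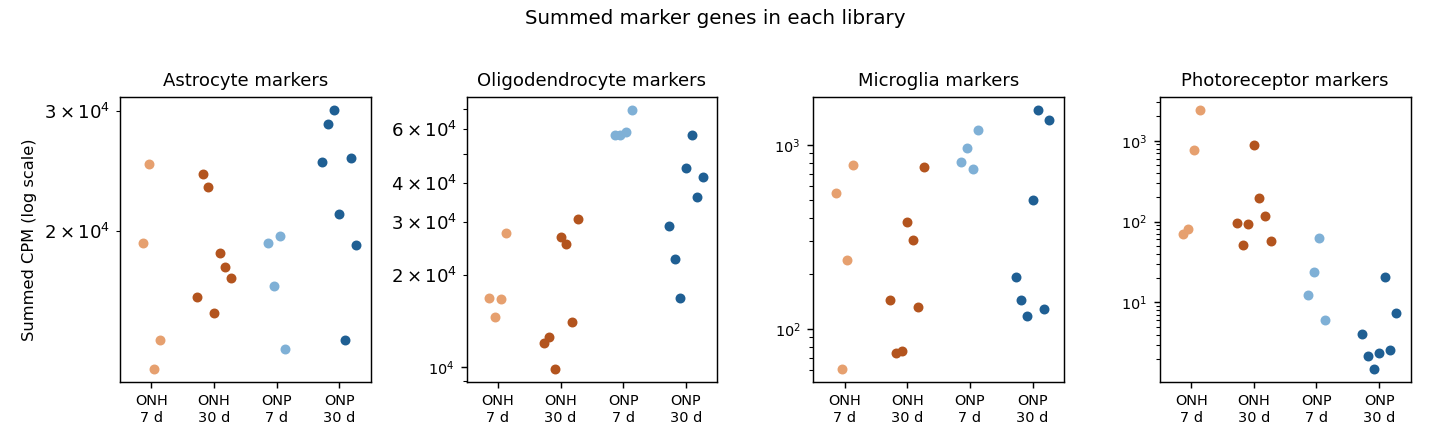
Summed CPM (log scale) of the astrocyte, oligodendrocyte, microglia and photoreceptor markers in each of the 22 libraries, by region and day (d). Each point is 1 library. Photoreceptor markers lay mostly higher in the ONH, with 1 ONP library at 62.9 CPM above the 2 lowest ONH libraries, and oligodendrocyte markers were mostly highest in the ONP at 7 days, at 57428 to 69528 CPM.

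Levels of different genes were compared per kilobase of the longest coding transcript. In the ONH at 30 days the highest medians were those of Aldoa (1413 CPM per kb), an aldolase, Gapdh (1215), the glyceraldehyde phosphate dehydrogenase, and Tpi1 (914), triose phosphate isomerase. Eno1, Ldha, Aldoc and Ldhb followed at 691, 684, 675 and 640 CPM per kb. Eno1 is ranked here without its near-identical copy Eno1b. With both summed the median was 2731 CPM, against 1401 CPM for Eno1 alone, so the rank of enolase is understated. The enzymes of the entry steps were far lower, with medians of 17.2 for Hk1 and 9.1 for Hk2, the hexokinases, and of 64.6, 60.0 and 16.0 CPM per kb for the phosphofructokinases Pfkl, Pfkm and Pfkp. Of the TCA cycle list Mdh2 (318), Mdh1 (314, the cytosolic malate dehydrogenase) and Idh2 (220, which makes NADPH in mitochondria) were highest, and the remaining TCA cycle genes lay between 14.1 (Suclg2) and 77.6 CPM per kb (Idh3b). Glycogen phosphorylase of brain type, Pygb, was at 54.3 CPM per kb, whereas glycogen synthase, Gys1, was at 2.4. The ONP at 30 days was headed by Aldoa (1195), Gapdh (1085), Aldoc (1049) and Ldhb (794 CPM per kb). Eno1 is again taken alone in this order, at a median of 886 CPM, against 2135 CPM with Eno1b summed. Spread between replicates, as the median SD of log2 CPM over the 44 genes, was 0.26 in the ONH and 0.19 in the ONP at 30 days and 0.30 and 0.15 at 7 days.

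The regional comparison at 30 days asked which of these genes differ between ONH and ONP astrocytes under the longer exposure. Of the 44 genes 21 passed the threshold (edgeR quasi-likelihood test, Benjamini-Hochberg adjusted p under 0.05), 8 higher and 13 lower in the ONH. This share of 47.7% was close to that of all genes tested (41.8% of 15133, with 21.8% higher and 20% lower), so the number of differing genes was not particular to the set. In glycolysis 7 genes were higher and 2 lower of 19, with a median log2FC of 0.23, beside -0.01 over all genes. Of the pyruvate entry genes 0 were higher and 3 lower of 6 (median -0.40), of the TCA cycle genes 1 was higher and 5 lower of 14 (median -0.14), and of the glycogen genes 0 were higher and 3 lower of 5 (median -0.33). In 28 fits, the main test and its alternatives, the median stayed between 0.17 and 0.26 for glycolysis and between -0.21 and -0.12 for the TCA cycle. Without replicates 5 and 7 of the ONP, 24 genes passed (7 higher and 17 lower), beside 36.3% of all genes (18.8% higher and 17.6% lower). Glycolysis then had 7 genes higher and 6 lower, the TCA cycle 0 and 5, and pyruvate entry and glycogen 0 and 3 each, so that the glycolytic calls were nearly even in direction in this fit.

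**Figure D2:**
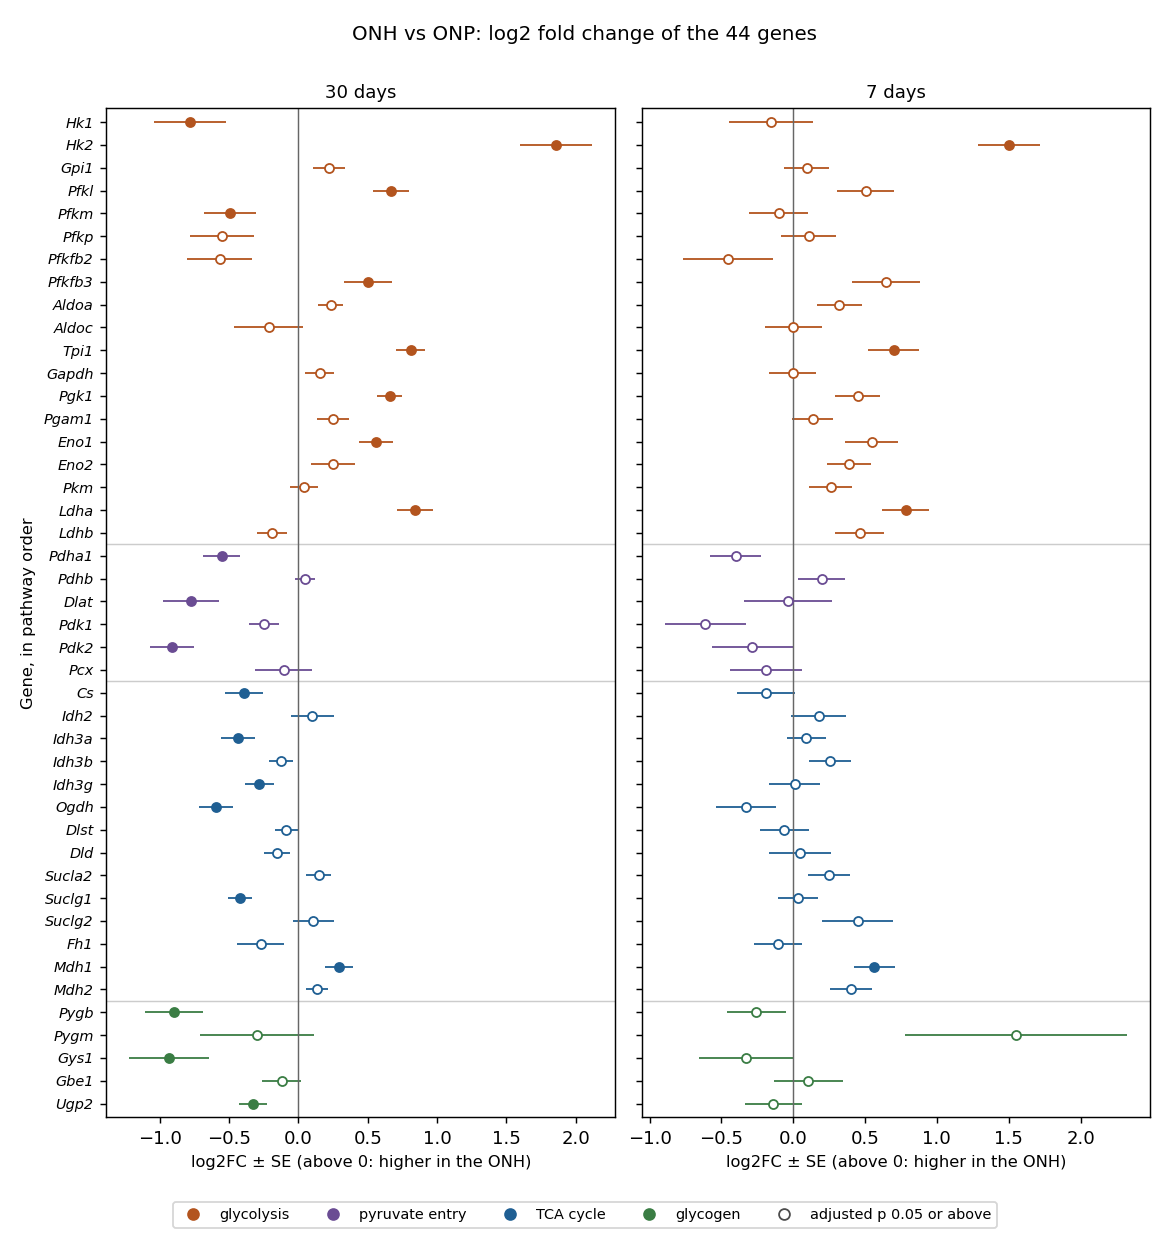
Log2 fold change ± SE (x axis) of each of the 44 genes (y axis, in pathway order and coloured by stage) for ONH vs ONP at 30 days (left) and 7 days (right), with filled points where the adjusted p was under 0.05. Hk2 lies farthest to the right at 30 days (1.86), and the called pyruvate entry and glycogen genes all lie left of 0 at 30 days.

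The 5 genes that were higher in every ONH library than in any ONP library at 30 days were all glycolytic, namely Hk2, Pfkl, Tpi1, Pgk1 and Ldha (groups not overlapping upwards in 9.27% of all genes). The 250 bases upstream of their RefSeq transcription starts (GRCm38.p6) are shown because genes of this pathway are textbook targets of hypoxia-inducible factor, whose core element reads ACGTG or GCGTG. Capitals mark these letters on either strand (read as CACGT or CACGC on the other strand), and overlapping matches run together.
Hk2, chr6:82774455-82774704, minus strand: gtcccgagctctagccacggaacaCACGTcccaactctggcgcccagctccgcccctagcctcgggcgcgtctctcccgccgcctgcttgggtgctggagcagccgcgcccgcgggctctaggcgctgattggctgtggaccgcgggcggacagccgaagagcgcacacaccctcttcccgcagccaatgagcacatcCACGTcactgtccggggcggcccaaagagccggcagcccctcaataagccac
Pfkl, chr10:78009808-78010057, minus strand: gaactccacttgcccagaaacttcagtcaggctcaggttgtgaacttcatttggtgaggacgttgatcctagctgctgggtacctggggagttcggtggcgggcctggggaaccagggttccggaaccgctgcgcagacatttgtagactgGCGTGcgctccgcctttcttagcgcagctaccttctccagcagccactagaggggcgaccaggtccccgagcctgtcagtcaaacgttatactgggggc
Tpi1, chr6:124814159-124814408, minus strand: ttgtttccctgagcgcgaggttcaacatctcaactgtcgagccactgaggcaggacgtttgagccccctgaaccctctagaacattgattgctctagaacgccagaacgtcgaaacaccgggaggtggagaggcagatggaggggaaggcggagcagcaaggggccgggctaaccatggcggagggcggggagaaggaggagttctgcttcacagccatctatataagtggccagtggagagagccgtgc
Pgk1, chrX:106186850-106187099, plus strand: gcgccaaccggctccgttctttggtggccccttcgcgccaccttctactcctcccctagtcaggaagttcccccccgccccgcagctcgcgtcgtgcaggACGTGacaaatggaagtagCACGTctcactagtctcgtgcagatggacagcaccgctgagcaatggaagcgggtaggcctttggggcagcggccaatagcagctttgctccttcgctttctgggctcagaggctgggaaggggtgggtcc
Ldha, chr7:46845554-46845803, plus strand, the first of its 2 windows: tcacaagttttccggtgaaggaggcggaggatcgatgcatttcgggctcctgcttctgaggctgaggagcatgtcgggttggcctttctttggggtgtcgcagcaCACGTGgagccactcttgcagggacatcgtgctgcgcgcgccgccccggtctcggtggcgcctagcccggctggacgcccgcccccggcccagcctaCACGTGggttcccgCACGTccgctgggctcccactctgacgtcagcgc
Hk2 and Pgk1 each held 2 matches in this stretch, Ldha held 5, Pfkl held 1 and Tpi1 held 0. In Ldha each CACGTG was counted on both strands, so its matches are fewer distinct sites. In windows of 250 bases before to 50 after the start, ACGTG or GCGTG was found on either strand in 43.8% of all 32851 windows and in 69.7% of the 66 windows of 43 of the 44 genes. Idh3a was not in the table. The share was 91.7% of 12 windows of the 8 genes higher in the ONH and 69.6% of 23 windows of 12 genes lower there. Counted by gene, 7 of the 8 and 9 of the 12 held a match, beside 31 of the 43 members and 12628 of all 27025 genes. The set of all genes was not limited to those tested here. A second element, AAGGTCA, an element bound by oestrogen-related receptors, was in 4.55% of the members' windows and 4.72% of all windows. These are matches of letters, windows of a gene overlap, and binding was not measured. The GENCODE gene Tpi1 starts within the stretch printed for it. The stretches printed for Pfkl and Ldha lie wholly inside their GENCODE genes (chr10:77986947-78010083 and chr7:46841475-46855627).

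Hk2 (chr6:82725025-82774454, minus strand) encodes the inducible hexokinase that starts glycolysis. It was measured at 43.3 to 80.2 CPM in the ONH at 30 days (median 50.2) and at 9.0 to 26.1 CPM in the ONP (median 12.5). The groups did not overlap, although ONP replicates 5 and 7 (26.0 and 26.1 CPM) lay above the other 5. The difference was 3.62-fold (log2FC 1.86 ± 0.26 SE, adjusted p = 6.1e-05). The constitutive hexokinase gene Hk1 went the other way, at 26.1 to 120 CPM in the ONH (median 73.4) and 95 to 140 CPM in the ONP (median 129). Its groups overlapped in the upper part of the ONH range, with a log2FC of -0.78 ± 0.26 (adjusted p = 0.023).

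Phosphofructokinase, the committed step of glycolysis, showed a similar division among its genes. Pfkl, the liver-type subunit, was at 190 to 343 CPM in the ONH (median 241) and at 144 to 186 CPM in the ONP (median 152), without overlap (log2FC 0.67 ± 0.13, adjusted p = 0.00085). Pfkm, the muscle-type subunit, was at 125 to 230 CPM (median 173) and 138 to 342 CPM (median 257). It was lower in the ONH, with overlapping ranges (-0.49 ± 0.19, adjusted p = 0.046). Pfkp, the platelet type, had a log2FC of -0.55 ± 0.23 and did not pass (adjusted p = 0.067). Pfkfb3, whose product makes the activator fructose 2,6-bisphosphate, was higher in the ONH at 67.0 to 144 CPM, against 59.6 to 98.2 CPM (0.50 ± 0.17, adjusted p = 0.029), and Pfkfb2 had -0.57 ± 0.23 (adjusted p = 0.062). Without ONP replicates 5 and 7 Pfkp and Pfkfb2 were lower in the ONH (-0.71 and -0.72, adjusted p = 0.037 and 0.035).

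In the lower part of glycolysis 2 genes were separate between regions. Tpi1 (chr6:124810586-124814296, minus strand) was at 1193 to 1641 CPM in the ONH (median 1468) and at 672 to 1023 CPM in the ONP (median 796). Every ONH library lay above every ONP library, a 1.75-fold difference (log2FC 0.81 ± 0.10, adjusted p = 2.65e-05). Pgk1, phosphoglycerate kinase, one of the ATP-producing steps, was at 392 to 555 CPM (median 506) against 285 to 335 CPM (median 308). Its groups were separate as well (0.66 ± 0.09, adjusted p = 4.4e-05). Gapdh, Pgam1, Gpi1, Aldoa, Aldoc, Pkm and Eno2 had log2FC from -0.21 to 0.25 and did not pass. Without ONP replicates 5 and 7 Aldoc was lower in the ONH (-0.50, adjusted p = 0.036).

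Eno1, the ubiquitous enolase, was higher in the ONH at 30 days, at 939 to 1555 CPM against 787 to 998 CPM (log2FC 0.56 ± 0.12, adjusted p = 0.002). The table also counts Eno1b, a near-identical copy, which took 51.7% of the counts of both over all libraries, so that the division of reads between them is uncertain. With both summed the difference was 0.50 ± 0.13 (adjusted p = 0.007), at 2256 to 3683 CPM against 1488 to 2488 CPM.

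Ldha, the lactate dehydrogenase subunit associated with lactate production, was at 1048 to 1515 CPM in the ONH (median 1241) and 507 to 935 CPM in the ONP (median 692). The groups did not overlap, and the difference was 1.79-fold (log2FC 0.84 ± 0.13, adjusted p = 0.00013). Ldhb, the subunit of oxidative tissues, was at 736 to 986 CPM and 764 to 1106 CPM, with a log2FC of -0.19 that did not pass. Without ONP replicates 5 and 7 Ldhb was lower in the ONH (-0.32, adjusted p = 0.011).

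The genes of pyruvate entry leaned the other way. Pdk2, a kinase that inactivates pyruvate dehydrogenase, was at 91.1 to 191 CPM in the ONH (median 135) and at 201 to 273 CPM in the ONP (median 258). All ONH libraries lay below all ONP libraries (log2FC -0.91 ± 0.16, adjusted p = 0.00036), which held for 7.08% of all genes tested. Pdha1 and Dlat, which encode the catalytic E1 alpha subunit and the E2 core of pyruvate dehydrogenase, were lower too (-0.55 ± 0.13, adjusted p = 0.0037, and -0.77 ± 0.20, adjusted p = 0.0064), whereas Pdhb, the E1 beta subunit, was at 124 to 154 CPM and 125 to 142 CPM (0.05, not passing). Pdk1 and Pcx, pyruvate carboxylase, an enzyme that replenishes the TCA cycle, did not pass.

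Of the TCA cycle, Ogdh, the E1 subunit of the oxoglutarate dehydrogenase complex, was at 115 to 193 CPM in the ONH (median 164) and 226 to 252 CPM in the ONP (median 246). The groups were separate (log2FC -0.59 ± 0.12, adjusted p = 0.0012). Suclg1, the common subunit of succinyl-CoA ligase, was at 88.1 to 101 CPM (median 96.3) against 105 to 147 CPM (median 132), also without overlap (-0.42 ± 0.09, adjusted p = 0.0012). Cs (citrate synthase), Idh3a and Idh3g (subunits of the NAD-dependent isocitrate dehydrogenase) were lower as well, with overlapping groups and log2FC of -0.39, -0.44 and -0.28 (adjusted p = 0.029, 0.01 and 0.037). The exception was Mdh1, cytosolic malate dehydrogenase of the malate-aspartate shuttle, which was higher in the ONH (597 to 748 CPM against 433 to 598 CPM, 0.29 ± 0.10, adjusted p = 0.027). Without ONP replicates 5 and 7 it did not pass (0.17, adjusted p = 0.128). Its mitochondrial counterpart Mdh2, along with Idh2, Idh3b, Dlst, Dld, Sucla2, Suclg2 and Fh1, did not pass.

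In glycogen metabolism Pygb, which releases glucose units from glycogen, was at 193 to 345 CPM in the ONH (median 212) and 253 to 603 CPM in the ONP (median 496). The overlap came from ONP replicates 5 and 7 (253 and 315 CPM), and the log2FC was -0.90 ± 0.21 (adjusted p = 0.0029). Gys1, glycogen synthase, was low in both regions, at 2.11 to 11.6 CPM and 10.1 to 18.4 CPM (-0.93 ± 0.29, adjusted p = 0.016). Ugp2, which makes the UDP-glucose used for glycogen, was lower by 0.33 (adjusted p = 0.015), and Gbe1 and the muscle phosphorylase gene Pygm did not pass.

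**Figure D3:**
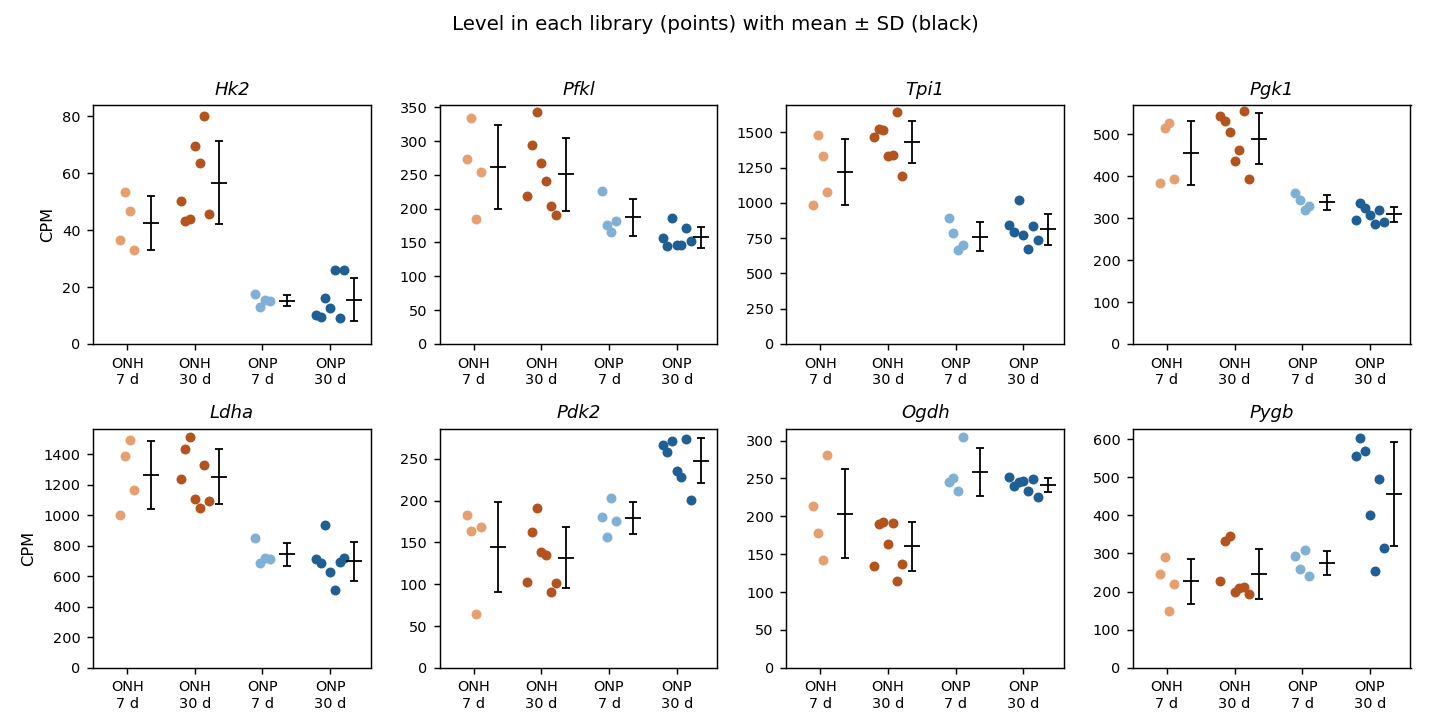
CPM (y axis, from 0) of 8 genes in each library, by region and day (d), with the mean ± SD in black (7 libraries per region at 30 days, 4 at 7 days). Hk2, Tpi1, Pgk1 and Ldha are separate between regions at both days, with Hk2 at 43.3 to 80.2 CPM in the ONH and 9.0 to 26.1 CPM in the ONP at 30 days.

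Markers of other cells moved with these differences, and their part was not tested. Besides the lists above, 4 pigment cell markers (Dct, Tyr, Pmel and Rpe65) summed to 59.6 to 406 CPM in the ONH and 3.46 to 6.47 CPM in the ONP at 30 days, and all 4 were called higher in the ONH. The 5 neuronal markers (Snap25, Syt1, Rbfox3, Nefl and Thy1) summed to 17.3 to 145 CPM and 10 to 20.3 CPM, with 2 of 4 tested called higher. The ONH replicate with the fewest photoreceptor counts at 30 days (50.6 CPM) had 43.3 CPM of Hk2, 1523 CPM of Tpi1, 532 CPM of Pgk1 and 1436 CPM of Ldha. The replicate with the most (883 CPM) had 69.7, 1333, 436 and 1108 CPM. Hk2 was thus higher in the latter, and Tpi1, Pgk1 and Ldha were lower. The oligodendrocyte sums of the regions overlapped at 30 days. The ONP replicate with the lowest sum (16846 CPM) had 1023 CPM of Tpi1, 935 CPM of Ldha, 272 CPM of Pdk2 and 246 CPM of Ogdh, and the ONH replicate with the highest sum (30531 CPM) had 1193, 1096, 101 and 137 CPM. Eno1 was at 998 CPM in the former and 939 CPM in the latter, against the direction of its call.

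At 7 days the same regional question gave 4 genes higher and 0 lower in the ONH, which is 9.09% of the 44 beside 13.2% of all 14752 genes tested (6.34% higher and 6.81% lower). The 4 were Hk2, Ldha, Tpi1 and Mdh1, and each was also called at 30 days. Hk2 was at 36.6, 53.5, 46.6 and 32.9 CPM in the ONH and 17.4, 12.9, 15.3 and 15.2 CPM in the ONP (log2FC 1.5 ± 0.22, adjusted p = 0.0016). Ldha was at 1001, 1391, 1496 and 1167 CPM against 853, 687, 720 and 717 CPM (0.78 ± 0.16, adjusted p = 0.011). In both genes the lowest ONH library exceeded the highest ONP library, as was also true of Tpi1 and Mdh1. Tpi1 was at 982, 1484, 1331 and 1076 CPM against 890, 790, 663 and 698 CPM (0.70 ± 0.18, adjusted p = 0.026). Mdh1 was at 593, 757, 726 and 676 CPM against 527, 445, 469 and 446 CPM (0.56 ± 0.14, adjusted p = 0.026). Groups separate upwards were found in 6 of the 44 genes, beside 9.9% of all genes, and downwards in 1 gene, Pdha1, beside 11.8%. Oligodendrocyte sums of the regions did not overlap at 7 days (14598 to 27465 CPM in the ONH, 57428 to 69528 CPM in the ONP). All 5 oligodendrocyte markers were called lower in the ONH, and 4 of 4 pigment and 3 of 4 photoreceptor markers higher. Their part in the 7 day values was not tested.

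By stage, the median log2FC at 7 days was 0.32 for glycolysis, -0.24 for pyruvate entry, 0.07 for the TCA cycle and -0.14 for glycogen genes, beside 0.07 for all genes. Pgk1, Eno1, Pfkl and Pfkfb3 had log2FC of 0.45 to 0.65 without passing (adjusted p = 0.079 to 0.121). With Eno1 and Eno1b summed, enolase passed at 7 days too (0.61 ± 0.15, adjusted p = 0.025). The genes called lower in the ONH at 30 days were not called at 7 days, and Pdk2 was at 183, 164, 64.3 and 168 CPM in the ONH against 181, 156, 203 and 175 CPM in the ONP. Without the pair of ONH libraries low in astrocyte markers 8 genes passed (7 higher and 1 lower, beside 15.3% of all genes, 6.74% higher and 8.61% lower), adding Pfkl, Pfkfb3, Suclg2 and Pdk1. Leaving out 1 library at a time gave 2 to 6 genes, with 2 left without 1 of the ONH libraries (the second value above in each list) or any of 3 ONP libraries.

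The isozyme balance was examined within libraries as the log2 ratio of counts, which does not depend on scaling. For 8 pairs and 4 comparisons, 32 two-sided exact permutation tests were made, and 6 passed Benjamini-Hochberg adjustment. With libraries taken as unpaired, the smallest p possible was 0.000583 between regions at 30 days, 0.00303 between days and 0.0286 at 7 days. Ldha to Ldhb, Hk1 to Hk2 and Pfkm to Pfkl reached this smallest p at 7 days, with separate groups (exact permutation p = 0.0286 each, adjusted 0.0808). The 30 day pools are paired, and the p-values between regions at 30 days ignore this pairing. Those at 7 days likewise ignore that both regions came from the same mice. Sign flips within the 30 day pairs gave 0 of 32 tests under the threshold (adjusted p = 0.0714 for the regional ratios that passed unpaired). With 7 pairs few flips are possible, so even fully separate groups could hardly pass. No conclusion about the ratios is drawn from this result.

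Hk1 exceeded Hk2 by a mean log2 ratio of 3.07 ± 0.86 (SD, n = 7) in the ONP at 30 days, whereas the 2 were close to balance in the ONH at 0.19 ± 0.97 (n = 7). The difference of -2.87 was larger than the spread in the unpaired test (exact permutation p = 0.000583, adjusted 0.00466), and the groups did not overlap. Pfkm to Pfkl and Pfkp to Pfkl showed separate groups likewise, with differences of -1.10 and -1.28 (exact permutation p = 0.000583 each, adjusted 0.00466). Ldha to Ldhb was 0.54 ± 0.19 in the ONH and -0.49 ± 0.23 in the ONP at 30 days, a difference of 1.03 (exact permutation p = 0.000583, adjusted 0.00466). Pdk1 to Pdk2 differed by 0.71, with overlapping groups (exact permutation p = 0.00117, adjusted 0.00746). The Ldha to Ldhb ratio was also the 1 pair that passed between days. In the ONP it was 0.38 ± 0.12 (n = 4) at 7 days and -0.49 ± 0.23 (n = 7) at 30 days, without overlap (difference -0.87, exact permutation p = 0.00303, adjusted 0.0162). The corresponding difference in the ONH was -0.16 (exact permutation p = 0.136, adjusted 0.231). The regional and the ONP comparisons share the ONP libraries of 30 days.

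**Figure D4:**
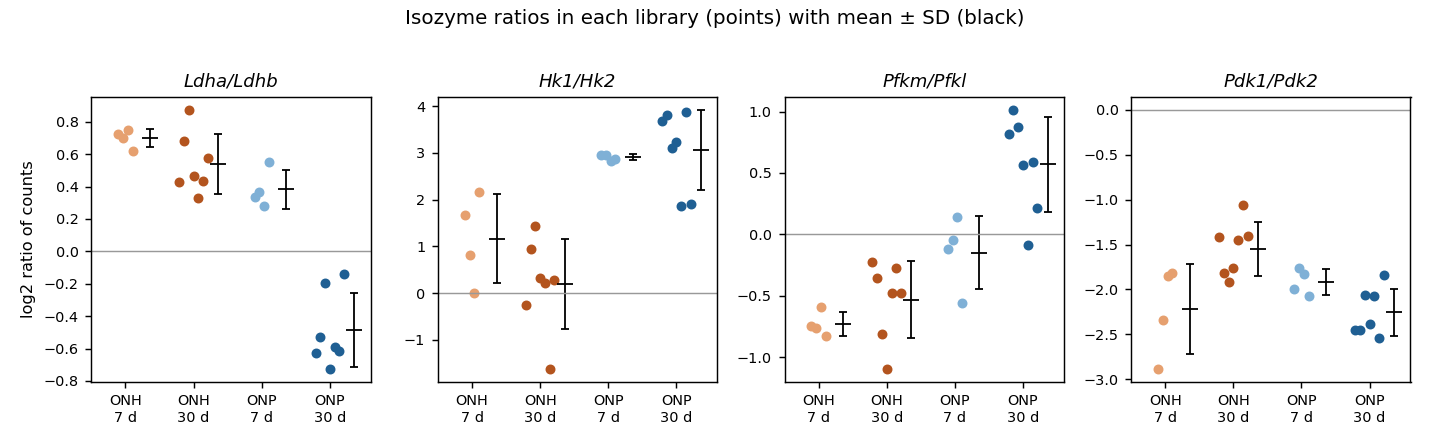
Log2 ratio of counts (y axis) of 4 isozyme pairs in each library, by region and day (d), with the mean ± SD in black and a line at equal counts. The Ldha to Ldhb ratio is above 0 in all libraries except the 7 of the ONP at 30 days, where it is -0.73 to -0.14.

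The comparison of 30 with 7 days asked how expression changed between the earlier and the later stage within a region. In the ONP 7 of the 44 genes passed, 4 higher and 3 lower at 30 days, which is 15.9% beside 17% of all 15491 genes (7.82% higher and 9.21% lower). The stage medians were -0.04 for glycolysis, 0.12 for pyruvate entry, 0.03 for the TCA cycle and 0.17 for glycogen genes, beside -0.01 for all genes. At 7 days the ONP libraries had mostly more oligodendrocyte counts (57428 to 69528 CPM) than at 30 days (16846 to 57512 CPM), and 4 of 5 oligodendrocyte markers passed as lower at 30 days. The part of this difference in the values below was not tested.

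Ldhb rose from 677, 532, 594 and 489 CPM at 7 days to 764 to 1106 CPM (median 1035) at 30 days, without overlap (log2FC 0.74 ± 0.14, adjusted p = 0.0047). Pdk2 rose from 181, 156, 203 and 175 CPM to 201 to 273 CPM (median 258), with 1 library of 7 days above the lowest of 30 days (0.44 ± 0.11, adjusted p = 0.016). Idh3b, a subunit of NAD-dependent isocitrate dehydrogenase, rose from 114, 109, 105 and 111 CPM to 115 to 156 CPM (median 136), where the closest libraries of the groups nearly touched (0.31 ± 0.09, adjusted p = 0.035). Among these, Ldhb passed in each of 22 alternatives, whereas Pdk2 lost the call in 2 and Idh3b in 8.

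Pygb rose from 294, 259, 309 and 240 CPM to 253 to 603 CPM (median 496), with a log2FC of 0.70 ± 0.22 and an adjusted p = 0.048 that 10 of 22 alternatives lost. Eno2, the enolase of neurons, fell from 49.8, 43.5, 43.6 and 44.2 CPM to 19.3 to 35.6 CPM (median 30.5), without overlap (-0.60 ± 0.15, adjusted p = 0.017). The 5 neuronal markers summed to 12.1 to 34.6 CPM at 7 days and 10 to 20.3 CPM at 30 days, with 1 of 4 tested called lower, and their part was not tested. Pcx fell from 109, 102, 115 and 101 CPM to 66.6 to 96.3 CPM (median 83.2), again without overlap (-0.42 ± 0.11, adjusted p = 0.022), and 7 alternatives lost its call. Eno1 was at 879, 1087, 1230 and 1225 CPM at 7 days and at 787 to 998 CPM (median 886) at 30 days (-0.36 ± 0.11, adjusted p = 0.041). This call held in 6 of 22 alternatives. It did not extend to enolase as a whole, since with Eno1b summed the log2FC was 0.10 ± 0.13 (adjusted p = 0.63).

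Without ONP replicates 5 and 7, 12 genes passed between days in the ONP, 11 higher and 1 lower, beside 24.3% of all genes (12.1% higher and 12.2% lower). The omission left the days without overlap in astrocyte sums, at 21139 to 30116 CPM at 30 days against 13379 to 19664.5 CPM at 7 days. The part of this difference in the values below was not tested. Ldhb (0.88), Pygb (0.94) and Pdk2 (0.55) had larger log2FC in this fit. Newly called were Pfkm (0.70), Aldoc (0.62), Suclg2 (0.44), Suclg1 (0.37), Idh3a (0.32), Mdh1 (0.31) and Ugp2 (0.31), and Eno2 was the 1 gene still lower (-0.46). Aldoc, the astrocytic aldolase, was at 1194 and 1268 CPM in replicates 5 and 7 and at 2629 to 3342 CPM in the other 5, beside 1725 to 2548 CPM at 7 days.

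In the ONH 0 of 44 genes passed between 7 and 30 days, as did 0% of all 15668 genes. Over all genes the share called was 1.04% without 1 of the pair of 7 day libraries low in astrocyte markers, 0.314% without both and 1.74% with all groups in a single fit. At an unadjusted p under 0.05 there were 2 of the 44 and 13.9% of all genes, and DESeq2 called 1 of the 44 (2.49% of the genes it tested). Eno2 had the smallest p. It was at 63.3, 56.7, 54.5 and 59.3 CPM at 7 days and 25.2 to 46.0 CPM (median 39.2) at 30 days, without overlap in the direction of lower values, as in 0.53% of all genes (log2FC -0.71 ± 0.17, adjusted p = 0.185 with edgeR and 0.016 with DESeq2). The neuronal markers in the ONH summed to 48.1 to 106 CPM (median 95.2) at 7 days and 17.3 to 145 CPM (median 43.8) at 30 days. Of 4 tested 0 were called, and their part was not tested. Pygm was at 16.3, 5.56, 16.8 and 49.9 CPM and 3.71 to 22 CPM (median 7.42), a log2FC of -1.28 ± 0.58 that rested largely on 1 library (adjusted p = 0.352). Pdk1 was at 24.7, 32.4, 17.8 and 47.8 CPM and 38.1 to 50.4 CPM (median 43.6, log2FC 0.49 ± 0.23, adjusted p = 0.361). Dld, the E3 subunit shared by pyruvate and oxoglutarate dehydrogenase, was at 144, 95.2, 70.3 and 98.4 CPM and 65.8 to 95.5 CPM (median 79.2, -0.39 ± 0.18, adjusted p = 0.363).

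The 14 TCA cycle genes all had negative log2FC in the ONH, from -0.39 to -0.01 (median -0.17, beside -0.02 for all genes, of which 48.4% were above 0), and none passed. In the alternatives 11 to 14 of the 14 were negative. The glycolytic genes were mixed there, with 8 positive and 11 negative values.

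**Figure D5:**
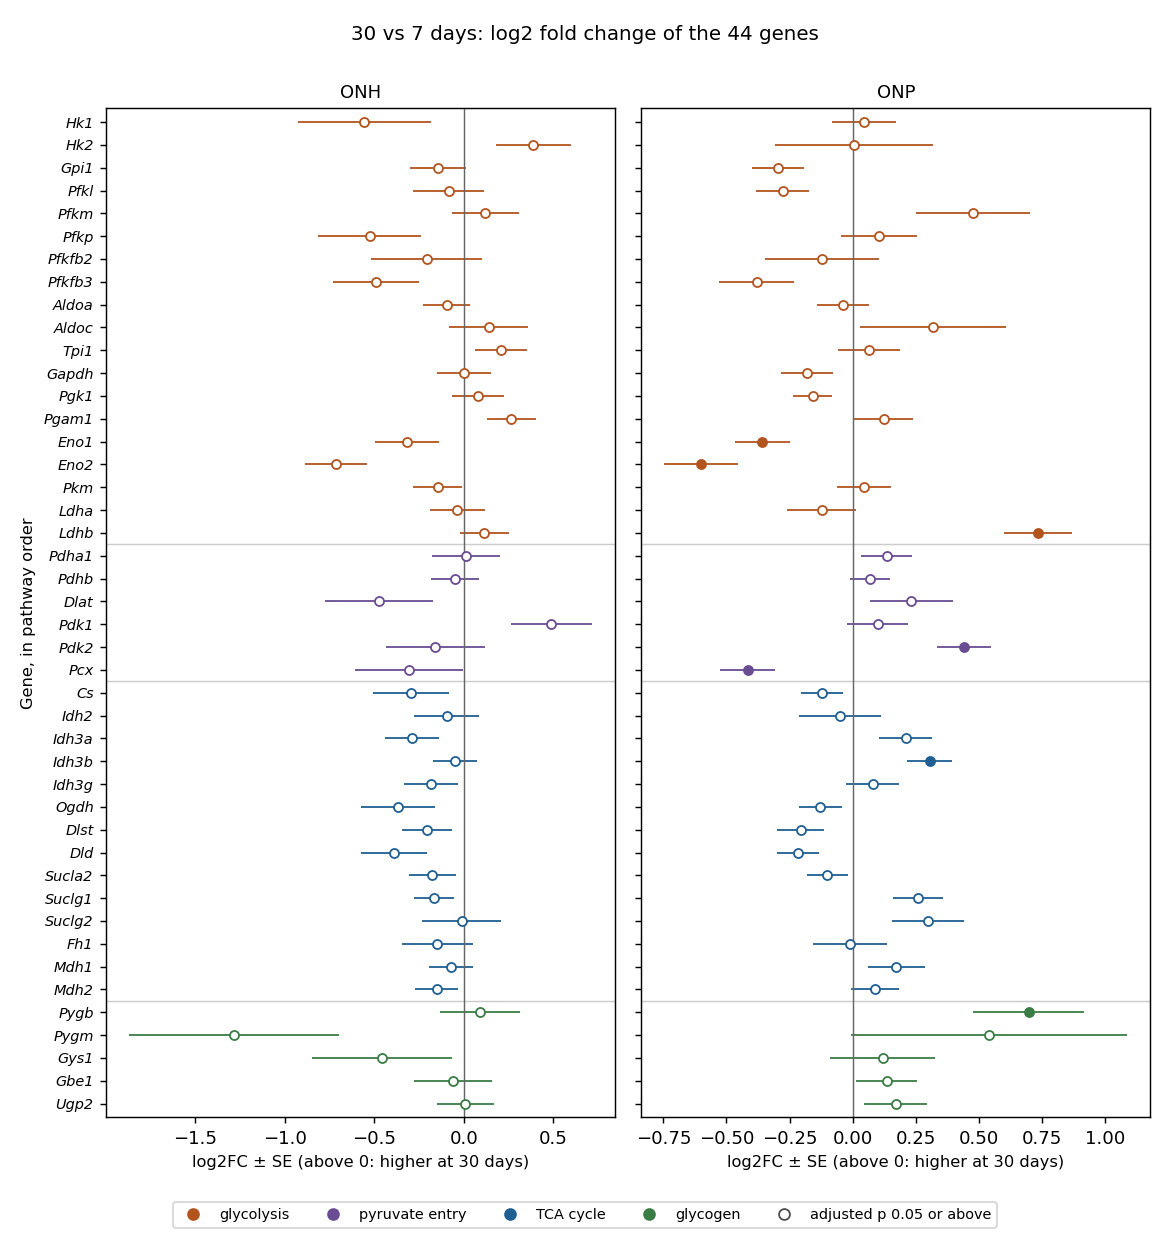
Log2 fold change ± SE (x axis) of each of the 44 genes (y axis, in pathway order and coloured by stage) for 30 vs 7 days in the ONH (left) and ONP (right), with filled points where the adjusted p was under 0.05. No point is filled in the ONH, and 7 are filled in the ONP, with Ldhb farthest to the right among them (0.74).

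Whether the change between 7 and 30 days differed between regions was tested by the interaction term over all 4 groups, given as the change in the ONP minus that in the ONH. Here 0 of 44 genes passed, beside 0.543% of all 16748 genes (0.149% positive and 0.394% negative). At an unadjusted p under 0.05 there were 5 genes (12.6% of all genes), and DESeq2 called 2, Ldhb and Suclg1 (2.28% of the genes it tested). Ldhb had the smallest p (log2FC 0.63 ± 0.19, adjusted p = 0.131), and its groups are given above for the ONP and stood at 605, 858, 891 and 760 CPM at 7 days and 736 to 986 CPM (median 834) at 30 days in the ONH. Suclg1 had 0.43 ± 0.13 (adjusted p = 0.151), with 115, 97.5, 99.9 and 110 CPM at 7 days in the ONP and 106, 114, 98.9 and 107 CPM in the ONH. The ONP libraries of 30 days lay higher, at 105 to 147 CPM, and the ONH libraries at 88.1 to 101 CPM.

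Idh3a had 0.51 ± 0.18 (adjusted p = 0.208). It was at 104, 104, 108 and 109 CPM in the ONP and 117, 108, 101 and 121 CPM in the ONH at 7 days, and at 107 to 150 CPM (median 127) and 72.7 to 110 CPM (median 92.8) at 30 days. Idh3b had 0.36 ± 0.14 (adjusted p = 0.268). In the ONH it was at 124, 145, 111 and 138 CPM at 7 days and 118 to 143 CPM (median 125) at 30 days. All 14 TCA cycle genes and all 5 glycogen genes had positive interaction values, with medians of 0.24 and 0.59, beside 0.06 for glycolysis and 0.01 for all genes, of which 50.9% were positive. The alternatives gave 13 to 14 and 4 to 5 positive values. Without ONP replicates 5 and 7 Ldhb passed (0.77, adjusted p = 0.029, beside 1.01% of all genes).

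Summed over their genes, glycolytic transcripts amounted to 13984 ± 1556 CPM (SD, n = 7) in the ONH and 12008 ± 1491 CPM (n = 7) in the ONP at 30 days, and to 13997 ± 1411 (n = 4) and 11465 ± 944 CPM (n = 4) at 7 days. TCA cycle transcripts at 30 days came to 2590 ± 217 CPM in the ONH and 2627 ± 251 CPM in the ONP, and the earlier values were 2834 ± 245 and 2494 ± 108 CPM. The glycogen genes came to 402 ± 77.7 CPM in the ONH and 654 ± 158 CPM in the ONP at 30 days, and to 397 ± 76.6 and 446 ± 43.4 CPM at 7 days. For pyruvate entry genes the later sums were 581 ± 97.4 CPM (ONH) and 800 ± 72.4 CPM (ONP), and those of 7 days 604 ± 118 and 710 ± 43.1 CPM. The glycogen and pyruvate entry sums of the ONH and ONP were thus farther apart at 30 than at 7 days, which was not tested.

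Deviations from the group means were correlated between genes over the 22 libraries as a description. Pairs within the TCA cycle had a median Pearson r of 0.39 (72 of 91 pairs positive), pairs within glycolysis 0.26 (131 of 171 positive), and pairs of a glycolytic with a TCA cycle gene 0.33 (212 of 266 positive). The 22 points share library depth and cell composition.

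Other genes of these pathways, 100 in a list that holds further isozymes, glycogen regulators, mitochondrial enzymes, the pentose phosphate pathway and transcriptional regulators, were read in the same fits. At 30 days 15 were higher and 24 lower in the ONH of 88 tested, beside 21.8% and 20% of all genes, and at 7 days 4 and 7 of 87, beside 6.34% and 6.81%. Pdk4, another inhibitory kinase of pyruvate dehydrogenase, was at 5.52 to 12.2 CPM in the ONH and 20.5 to 28.2 CPM in the ONP at 30 days (log2FC -1.65 ± 0.16, adjusted p = 2.3e-06). Ppargc1a, the coactivator of mitochondrial biogenesis, was at 4.21 to 12 CPM and 16.5 to 34.5 CPM (-1.92 ± 0.27, adjusted p = 5.1e-05). Neither gene overlapped between regions.

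Glycogen regulators went in both directions at 30 days. Phkg1, the catalytic subunit of phosphorylase kinase, was lower in the ONH (-1.99), whereas Stbd1, a glycogen-binding protein, and Pgm2l1, which makes glucose 1,6-bisphosphate, were higher (1.69 and 1.84). Acly and Idh1, which supply cytosolic acetyl-CoA and NADPH, were lower (-1.19 and -0.75), and Pgls of the pentose phosphate pathway was higher (0.88). At 7 days Pdk4 (-1.71), Acly (-1.56), Idh1 (-1.12), Stbd1 (1.33) and Pgls (0.85) passed with the same signs, and Tkt (-0.99), Taldo1 (-1.03) and Bpgm (-1.03) were lower in the ONH. The oligodendrocyte sums of the regions did not overlap at 7 days, and their part in these values was not tested. Acly in the ONP was at 211 to 273 CPM at 7 days and 129 to 167 CPM at 30 days.

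Between 7 and 30 days 11 genes of this list rose and 14 fell in the ONP of 89 tested, beside 7.82% and 9.21% of all genes, and 0 of 89 passed in the ONH. The 8 with the smallest p in the ONP were Aco1 (-0.70), Ogdhl (-1.61), Acly (-0.76) and Tkt (-0.53), which fell along with the hypoxia-inducible factor gene Epas1 (-0.62), and Ppp1r3c (1.2), Vhl (0.60) and Mpc1 (0.47), which rose. Ppp1r3c, a subunit that directs a phosphatase to glycogen, was at 28.8 to 41.6 CPM at 7 days and 50.6 to 106 CPM at 30 days, without overlap. Vhl encodes the ubiquitin ligase component that marks hypoxia-inducible factors for degradation, and Mpc1 a subunit of the mitochondrial pyruvate carrier. In the ONP 4 endothelial markers (Pecam1, Cldn5, Cdh5 and Flt1) summed to 55.0 to 89.4 CPM at 7 days and 5.13 to 51.5 CPM at 30 days. Of these 4, 2 were called lower at 30 days, and their part in the changes of Epas1 and the other genes was not tested. In the interaction 0 of 90 passed.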

How the data were processed

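The authors aligned paired reads with STAR 2.6.1d (mm10, Ensembl 94) in bcbio, quantified them with Salmon 0.14.2 and summarised them per gene. The authors deposited estimated counts, given as integers and not normalized, and a second table of log2 values that DESeq2 1.34.0 (R 4.1.0) produced by variance stabilization. Poly(A) RNA was amplified with a low-input kit, so duplicates are not independent molecules and the limit of 3 counts covers counting error only. The counts held 0 fractions, 0 rows without a gene and 0 columns without a label. Libraries of 7 days carry numbers other than those of the labels and were assigned by region and day only, so their order here is a name.

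Counts were tested in R 4.3.3 with edgeR 4.0.16 (filterByExpr, TMM, quasi-likelihood test, Benjamini-Hochberg over all genes tested, adjusted p under 0.05, no fold cutoff), fitting only the groups compared. Separate samples of a group are pools of different mice, so p-values measure the spread between pools. The SE is the log2FC divided by the square root of F. The alternatives were DESeq2 1.42.0, limma 3.58.1 (voom with quality weights, and the deposited log2 values), RLE or library size scaling, other filters, no mitochondrially encoded genes, all groups in a single fit, a replicate block and each library left out. Chosen after the values were seen were the sum of Eno1 and Eno1b, the omission of the 2 libraries lowest in astrocyte markers, and the blocks in DESeq2 and limma (duplicateCorrelation). Ratios had 0.5 counts added and were tested by exact permutation (Python 3.11.15). Scripts were tested on simulated data.

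The 30 day pools are paired, since both regions came from the same mice. By the paper's account the regions shared mice at 7 days as well. Those libraries could not be matched, so the 7 day p-values between regions treat them as independent. Deviations of same-numbered libraries from their group means correlated at 0.106 to 0.537 in all 7 pools, and 3 of 7 correlated best with their own number. Within groups libraries correlated at 0.913 to 0.985, and 0 pairs were identical.

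In each comparison the 8 members with the smallest p among those called (4 where none was called) are given in full, and of the other pathway genes at most 8 called genes. A marker gene each of the oligodendrocyte and photoreceptor lists is not reported here, and the sums leave it out. The members, lists and markers were chosen with earlier results of these data known. Positions and lengths are from GENCODE M21 (GRCm38) and promoter windows from RefSeq (GRCm38.p6). Protein sequences were not used here.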

Additional observations from a re-analysis of the deposited data

Results flagged for a closer look

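Among 19 genes in 76 groups, 4 groups held a library far from the others by Dixon's test, which chance would flag in about 1 of 20 groups. In the ONH at 7 days 1 library had 64.3 CPM of Pdk2, the nearest other library 164 CPM, and this library was 1 of the pair low in astrocyte markers. Eno2 was at 19.3 CPM in replicate 5 of the ONP at 30 days, the nearest other being 28.7 CPM, and replicate 5 had the lowest astrocyte and the highest microglial sum of its group. Eno2 was at 49.8 CPM in 1 ONP library at 7 days, against 44.2 CPM in the nearest. Idh3b was at 143 CPM in replicate 3 of the ONH at 30 days, against 129 CPM in the nearest.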

How the results depend on the processing

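Calls between regions at 30 days held in all 27 alternatives for Tpi1, Pgk1, Hk2, Ldha, Pdk2, Pfkl, Suclg1 and Ogdh, and the count of members stayed between 18 and 25. With the replicate block 23 members passed with edgeR and 25 with DESeq2, and the block changed no call of these 8 genes. No paired analysis was possible for the 7 day comparison or between days because the numbers in the 7 day column names are not those of the sample titles, so that these columns carry no label number. For the isozyme ratios, sign flips within the 30 day pairs gave 0 of 32 tests under the threshold (adjusted p = 0.0714 for the 5 regional ratios), since 7 pairs allow few flips. Leaving out 1 library gave 6 to 7 ratios.

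At 7 days 8 members passed with library size scaling (15.1% of all genes), 9 with all groups in a single fit (22.6%), 8 without the 2 ONH libraries low in astrocyte markers, and 2 to 6 with 1 library left out. Hk2 and Ldha passed in all 19 alternatives. In the ONP between days 3 members passed with all groups in a single fit (7.1% of all genes), 12 without the 2 libraries low in astrocyte markers, and 3 to 9 with 1 library left out. There 3 passed without either of 2 of the 7 day libraries, 4 without either other 7 day library or replicate 1, 4 or 6 of 30 days, and Eno1 turned to 0.10 with Eno1b summed. In the ONH between days DESeq2 and the single fit each gave 1 member, Eno2, and omitting 1 library gave 0 to 0. For the interaction DESeq2 gave 2 members, the omission of the 2 ONP libraries gave 1, the block 0, and leaving out 1 library 0 to 0. The causes were not tested. With library size scaling the all-gene median log2FC went from -0.01 to 0.11 in the ONP between days, from 0.07 to 0.18 at 7 days and from 0.01 to 0.16 in the interaction. Depth limits Gys1 and Pygm most, with levels down to 2.11 and 1.19 CPM.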
